A study of Mus musculus with 24 samples.

Results

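The genes described here are the Wnt ligands, their receptors, the secreted and surface inhibitors of the pathway, its intracellular effectors and its feedback targets, measured in mouse skin. They were chosen by symbol from a table of 18892 genes. All Wnt, Fzd, Sfrp and Dkk genes with a number were taken, together with 19 further pathway genes named one by one, and 56 symbols matched. Of these, 46 had at least 1 FPKM (fragments per kilobase of gene, adjusted for library size) in at least 4 of the 24 libraries and were tested among 13039 genes that passed the same filter. The remaining 10 (Wnt1, Wnt2b, Wnt7a, Wnt8a, Wnt8b, Wnt9b, Wnt16, Fzd9, Dkk1 and Dkk4) reached at most 0.862 FPKM in any library, and Wnt8b was listed at 0 in all 24.

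Poly(A) RNA came from the skin of 24 mice, 4 in each of 6 groups. Treatment mice were injected daily with dihydrotestosterone (DHT, an androgen) and received an extract of HLX (Hanlianxiang, a traditional Chinese medicine formula) on the skin. Model mice received the same DHT injections with solvent on the skin, and control mice received saline injections with solvent on the skin. Skin was taken at day 10 or at day 15, from different mice. The labels give no strain, sex, age or body site, so nothing is known here of how far the groups share these. The p-values below rest on the spread between mice within groups, estimated jointly over all 6 groups. They do not use the spread of the compared groups alone.

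Wnt proteins are secreted, lipid-modified signals that bind Frizzled receptors together with the co-receptors Lrp5 or Lrp6. In the canonical branch this stabilises beta-catenin, which enters the nucleus and activates genes with the DNA-binding partners Lef1 and Tcf7, among them genes such as Axin2 and Nkd1 that damp the signal again. In skin, the pathway is known for its part in forming hair follicles, in starting the growth phase of the hair cycle and in driving the hair shaft precursors of the follicle matrix.

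Libraries held 37000000 to 41100000 fragments (rounded) as recovered from the table, and 16457 to 16943 genes were above 0. Basal keratinocyte markers were high in every library (6 genes, 666 to 1508 FPKM summed), and none of them was at 0. Transcripts of kidney stood out in 2 groups: Kap, a kidney androgen-regulated protein, was at 14.0 to 20.5 FPKM in model skin and 19.9 to 23.8 FPKM in control skin at day 10, and was listed at 0 in all 16 other libraries. Y-linked transcripts (4 genes, summed) were at 28.3 FPKM in treatment replicate 3 of day 10, and at 22.3, 22.3 and 33.4 FPKM in treatment replicates 1, 2 and 4 of day 15, against 39.2 to 50.6 FPKM in the other 20 libraries. Replicates were least alike in treatment and model skin of day 15, where the lowest correlations between libraries across genes were 0.928 and 0.943, and the lowest in any other group was 0.979. In bulk skin, fewer cells of a type and less RNA per cell cannot be told apart.

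Levels of the 46 genes spanned a wide range. Ctnnb1, which encodes beta-catenin, averaged 253.7 FPKM over the 24 libraries and was the highest. Wls, the carrier that brings Wnt proteins to the cell surface, averaged 45.7 FPKM, and Porcn, the enzyme that attaches their lipid, 5.48 FPKM. Among the 11 receptors, Fzd1 (38.4 FPKM), Fzd6 (25.0 FPKM) and the co-receptor Lrp6 (22.4 FPKM) led, and Fzd8 was lowest at 1.51 FPKM. The 12 ligands were lower, between 1.47 FPKM for Wnt6 and 12.7 FPKM for Wnt11. Wnt4 (12.4 FPKM) and Wnt5a (9.64 FPKM) came next to Wnt11, followed by Wnt3, Wnt10a and Wnt10b at 6.48, 6.10 and 5.71 FPKM. Of the inhibitors, Apcdd1 (37.7 FPKM) and Sfrp1 (31.0 FPKM) were highest and Notum, an enzyme that removes the lipid from Wnt proteins, was lowest at 1.13 FPKM. Nkd2 led the feedback targets at 24.7 FPKM, against 7.93 FPKM for Axin2.

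**Figure D1:**
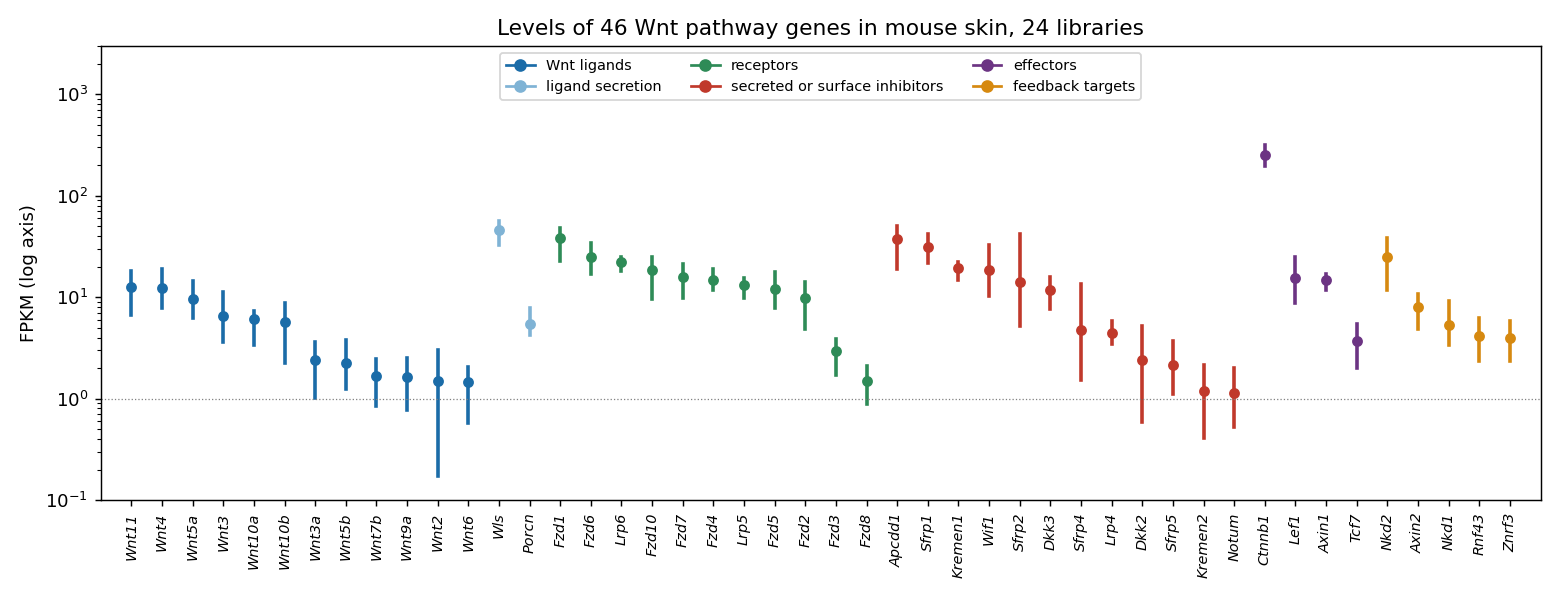
FPKM (log axis) of the 46 Wnt pathway genes, grouped by role and ordered by mean within a role; the point is the mean and the bar the lowest to highest of 24 libraries. Ctnnb1 stands above all others at 253.7 FPKM, and the ligands lie between 1.47 and 12.7 FPKM; the dotted line marks 1 FPKM.

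Over the 24 libraries, the highest was a median of 2.63 times the lowest, and under 2 times for 10 of the 46 genes. Among these 10 were Lrp6 (1.38 times), the scaffold gene Axin1 (1.44 times) and Ctnnb1 (1.59 times). The widest ranges among genes above 1 FPKM in every library belonged to the secreted Frizzled-related proteins Sfrp4 and Sfrp2, at 9.01 and 8.01 times. Dkk2, a secreted antagonist that binds Lrp5 and Lrp6, ranged over 8.83 times and was under 1 FPKM in 4 libraries. The ligand Wnt2, which was also under 1 FPKM in some libraries, had the largest range of the 46 genes at 17.2 times.

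Sequences upstream of the start sites are shown for the genes that both changed between treatments and held a binding motif of the Lef1 and Tcf7 family there, because these factors are themselves among the genes that changed. The 250 bases before each RefSeq start (GRCm38.p6) were searched on both strands for CTTTGA and CTTTGT, which read TCAAAG and ACAAAG on the other strand. Of the 16 genes that changed, 13 had a window and 4 held a match, in 4 of 19 windows (21.1%), while 27.6% of 32851 windows of all genes did. Capitals mark the matches. The Dkk2 window lies at chr3:132085042-132085291 on the plus strand, that of Fzd1 at chr5:4758217-4758466 on the minus strand, that of Lef1 at chr3:131156044-131156293 on the plus strand (one of its 4 starts, inside the gene) and that of Wnt11 at chr7:98834862-98835111 on the plus strand (one of its 2 starts).
Dkk2: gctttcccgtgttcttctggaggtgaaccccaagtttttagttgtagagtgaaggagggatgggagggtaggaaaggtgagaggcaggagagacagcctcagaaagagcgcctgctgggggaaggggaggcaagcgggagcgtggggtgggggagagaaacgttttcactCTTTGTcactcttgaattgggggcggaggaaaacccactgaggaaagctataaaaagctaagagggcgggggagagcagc
Fzd1: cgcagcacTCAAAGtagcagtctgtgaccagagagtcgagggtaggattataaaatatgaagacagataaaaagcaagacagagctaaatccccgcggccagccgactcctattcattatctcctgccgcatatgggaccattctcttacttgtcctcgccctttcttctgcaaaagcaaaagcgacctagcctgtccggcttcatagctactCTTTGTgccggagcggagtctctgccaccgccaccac
Lef1: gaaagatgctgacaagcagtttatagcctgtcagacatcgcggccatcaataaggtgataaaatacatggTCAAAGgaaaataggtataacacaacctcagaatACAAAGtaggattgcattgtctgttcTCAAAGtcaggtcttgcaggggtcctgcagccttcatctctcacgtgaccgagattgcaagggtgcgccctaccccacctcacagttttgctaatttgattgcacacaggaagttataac
Wnt11: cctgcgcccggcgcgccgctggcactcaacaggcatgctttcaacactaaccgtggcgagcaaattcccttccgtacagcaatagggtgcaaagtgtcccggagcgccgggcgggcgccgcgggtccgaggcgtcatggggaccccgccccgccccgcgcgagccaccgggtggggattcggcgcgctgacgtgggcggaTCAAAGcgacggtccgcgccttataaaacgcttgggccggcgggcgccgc
Lef1 held 3 matches, Fzd1 2 and the other two 1 each. A match describes these letters only, and the share among the changed genes was not above that of all windows.

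Model against control skin at day 10 asks what DHT injection did to the pathway. The nuclear partners of beta-catenin, Tcf7 and Lef1, the ligand Wnt3, the receptor Fzd8 and the feedback target Nkd1 were lower in model skin, and the inhibitor Sfrp2 was higher. These were 6 of the 46 genes (13.0%), with 1 higher and 5 lower at an adjusted p under 0.05 in limma, while 13.8% of all 13039 genes were called (7.04% lower). The median log2 difference was -0.17 over the 46 genes and -0.02 over all genes. Of the 46, 35 (76.1%) were below 0, against 53.1% of all genes. Log2 differences are on the log2(FPKM + 1) scale, which understates the change of low genes. All 3 tested kidney genes were lower in model skin too. The 9 kidney genes summed to 17.7 to 25.4 FPKM in model and 25.4 to 29.3 FPKM in control skin. Their part in the result was not tested.

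Tcf7 was at 3.91, 2.85, 2.61 and 2.96 FPKM in model skin, against 4.58, 4.08, 5.46 and 4.58 FPKM in control skin. All 4 model libraries lay below all 4 control libraries, and the log2 difference was -0.48 (SE 0.12, adjusted p = 0.0127, limma). Lef1 was at 17.8, 14.5, 12.4 and 12.4 FPKM in model skin, against 20.3, 19.7, 24.8 and 20.0 FPKM in control skin. Again the groups did not overlap, with control replicate 3 well above its group, and the difference was -0.55 (SE 0.17, adjusted p = 0.0338, limma). Ctnnb1 itself was at 254 ± 11.0 FPKM in model skin and 291 ± 16.6 FPKM in control skin (SD, n = 4 each), a difference of -0.19 that was not called (adjusted p = 0.154, limma).

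Wnt3, a canonical ligand of the hair follicle epithelium, was at 5.86, 4.50, 3.63 and 4.59 FPKM in model skin, against 7.72, 5.59, 11.3 and 8.18 FPKM in control skin. The lowest control library lay within the range of the model libraries, and the difference was -0.68 (SE 0.18, adjusted p = 0.0182, limma). Fzd8 was at 1.37, 1.38, 1.499 and 1.30 FPKM in model skin, against 1.90, 1.63, 1.95 and 2.10 FPKM in control skin. It is one of the lowest receptors and its libraries did not overlap between the groups (log2 difference -0.28, SE 0.086, adjusted p = 0.0377, limma).

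Nkd1, which binds Dishevelled and damps the signal, was at 5.53, 5.49, 4.57 and 4.31 FPKM in model skin, against 7.46, 6.09, 9.15 and 5.61 FPKM in control skin. The highest model library lay just under the lowest control library (log2 difference -0.42, SE 0.13, adjusted p = 0.0401, limma). All 5 feedback targets were below 0, and Axin2, Nkd2, Rnf43 and Znrf3 were not called. Axin2, the most widely used readout of canonical signalling, was at 8.07 ± 1.56 FPKM in model skin and 9.71 ± 0.806 FPKM in control skin (SD, n = 4 each; log2 difference -0.25, SE 0.16, adjusted p = 0.300, limma).

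Sfrp2, a secreted protein that can hold Wnt ligands away from Frizzled, was at 21.4, 34.3, 21.1 and 14.6 FPKM in model skin, against 8.04, 6.87, 9.62 and 5.25 FPKM in control skin. Every model library was above every control library, the means differed 3.07-fold, and the log2 difference was 1.46 (SE 0.38, adjusted p = 0.0171, limma). Sfrp2 was the only one of the 12 inhibitors to be called. Wif1, which binds Wnt proteins directly, was at 27.4 ± 4.26 FPKM in model skin and 18.7 ± 3.34 FPKM in control skin (SD, n = 4 each) and was not called (log2 difference 0.54, adjusted p = 0.0601, limma). Fibroblast markers, a cell type that makes Sfrp2 in skin, were at 7408 to 11250 FPKM in model skin and 4357 to 6674 FPKM in control skin (10 genes summed, 2 of 10 called higher, none at 0). Their part in the result was not tested.

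Single libraries decided most of these calls. With control replicate 3, model replicate 2 or model replicate 3 left out, 1 of the 46 genes was called. There were 3 with control replicate 1, control replicate 4 or model replicate 4 left out, and 13 with model replicate 1 left out. Here and below, counts with 1 library left out show how stable the calls were. Most are given without the share of all genes called. Tcf7 was lost when replicate 3 of either group was removed (highest adjusted p 0.0561, limma). Sfrp2 was lost when control replicate 4 or model replicate 2 was removed (0.0671), and Wnt3 when control replicate 3, model replicate 2 or model replicate 3 was (0.0808). Lef1 depended on control replicates 1, 3, 4 and model replicates 2, 3, 4 (0.118), Nkd1 on control replicates 1, 3 and model replicates 2, 3, 4 (0.166), and Fzd8 on every library except control replicate 2 (0.110). Libraries of both groups did not overlap for 8 of the 46 genes on the lower side, and for 9.3% of all genes.

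**Figure D2:**
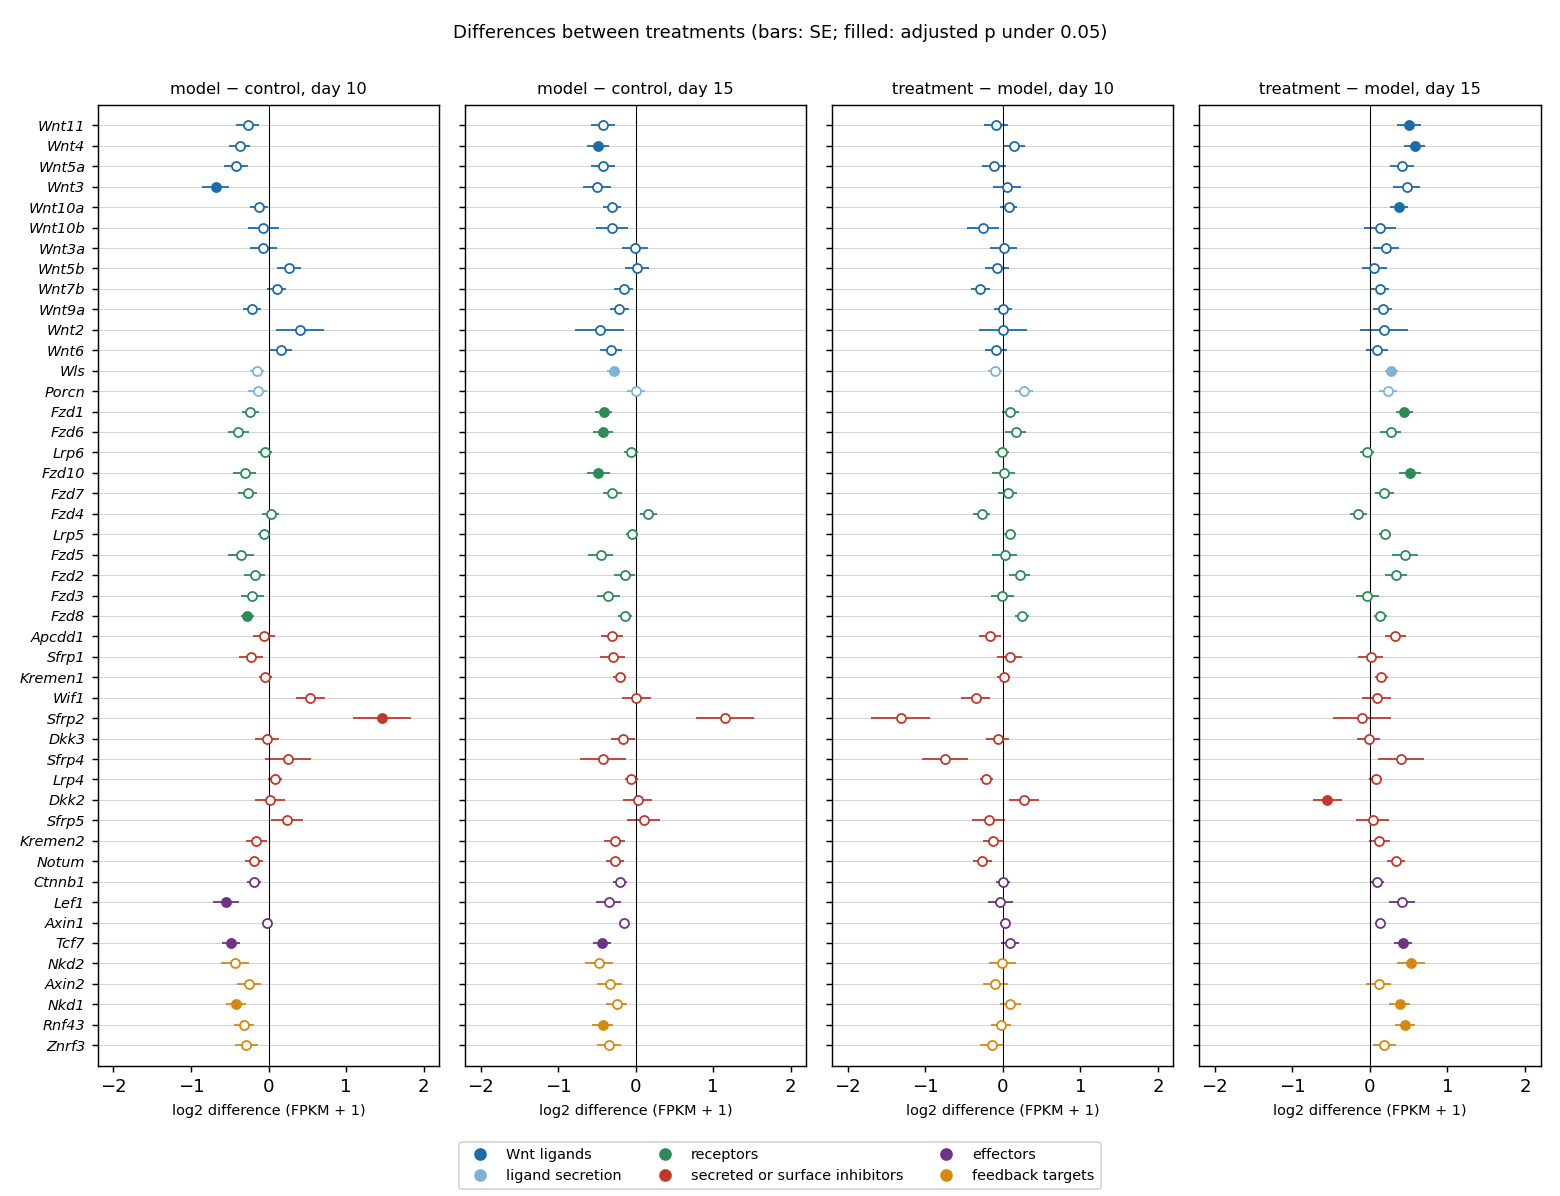
Log2 differences on the log2(FPKM + 1) scale of the 46 genes in the 4 main comparisons, with their SE; filled points have an adjusted p under 0.05. Filled points lie left of 0 in model against control skin at both days except for Sfrp2 at day 10, there are none in treatment against model skin at day 10, and at day 15 they lie right of 0 except for Dkk2.

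In the same comparison at day 15, 3 of the 11 receptors (Fzd1, Fzd6 and Fzd10), 1 of the 12 ligands (Wnt4), the carrier Wls, the effector Tcf7 and the feedback target Rnf43 fell in model skin. These 7 of 46 genes (15.2%) were all lower, while 10.8% of all genes were called (6.56% lower). The median log2 difference was -0.29 over the 46 genes and -0.03 over all genes. Of the 46, 39 (84.8%) were below 0, against 55.8% of all genes. Basal epidermis markers were lower as well, with 3 of 6 called, a median log2 difference of -0.39 and sums of 666 to 1151 FPKM in model skin against 1352 to 1508 FPKM in control skin (none at 0). Their part in the result was not tested.

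Treatment against model skin at day 15 asks what the extract did to DHT-injected skin. Wnt4, Wnt10a, Wnt11, Wls, Fzd1, Fzd10, Tcf7, Nkd1, Nkd2 and Rnf43 rose in treatment skin and Dkk2 fell. These were 11 of 46 genes (23.9%), while 19.7% of all genes were called (10.3% higher). The median log2 difference was 0.19 over the 46 genes and -0.02 over all genes. Of the 46, 6 (13.0%) were below 0, against 52.7% of all genes. Both day 15 comparisons use the same 4 model libraries, so their differences are not independent. Values are therefore given for all 3 groups.

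Wnt4, a ligand made in epidermis and follicle, was at 14.6, 11.3, 18.9 and 12.1 FPKM in treatment skin, 11.4, 8.05, 7.89 and 9.14 FPKM in model skin, and 10.5, 13.6, 14.6 and 13.9 FPKM in control skin. Model replicate 1 was as high as the lowest treatment library, and the other 3 model libraries lay below all treatment and control libraries. The log2 difference was 0.58 for treatment against model (SE 0.14, adjusted p = 0.00825) and -0.49 for model against control (SE 0.14, adjusted p = 0.0315, limma). Wnt11, a ligand known mainly for non-canonical signalling, was at 13.3, 11.0, 18.3 and 15.0 FPKM in treatment skin, 12.4, 6.62, 9.79 and 10.9 FPKM in model skin, and 13.0, 12.5, 13.8 and 13.9 FPKM in control skin. Model replicate 2 was lowest, and only treatment against model was called (0.51, SE 0.15, adjusted p = 0.0248, limma).

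Wnt10a, a ligand needed for hair and tooth development, was at 6.97, 4.81, 7.15 and 5.88 FPKM in treatment skin, 5.98, 3.39, 4.34 and 4.55 FPKM in model skin, and 5.63, 5.86, 5.997 and 5.63 FPKM in control skin. Treatment and model libraries overlapped, and the log2 difference was 0.38 (SE 0.11, adjusted p = 0.0257, limma). Wls was at 42.8, 41.2, 51.8 and 47.3 FPKM in treatment skin, 42.6, 33.9, 32.6 and 42.1 FPKM in model skin, and 44.5, 46.2, 48.5 and 44.4 FPKM in control skin. Model libraries fell into 2 higher and 2 lower ones, all below every control library. The difference was 0.28 for treatment against model (SE 0.086, adjusted p = 0.0292) and -0.28 for model against control (SE 0.086, adjusted p = 0.0402, limma). Wnt3 and Wnt5a were at 7.95 ± 2.33 and 10.6 ± 3.09 FPKM in treatment skin, 5.35 ± 1.03 and 7.51 ± 1.49 FPKM in model skin, and 7.92 ± 0.405 and 10.3 ± 1.35 FPKM in control skin (SD, n = 4 each), and neither was called in a day 15 comparison. All 12 ligands were above 0 in treatment against model skin, and 3 were called.

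Fzd1 was at 40.2, 33.6, 45.6 and 37.9 FPKM in treatment skin, 34.8, 22.6, 25.7 and 32.4 FPKM in model skin, and 33.2, 39.8, 41.6 and 39.1 FPKM in control skin. Model replicate 1 exceeded the lowest library of both other groups, and the other 3 did not. The difference was 0.44 for treatment against model (SE 0.11, adjusted p = 0.00977) and -0.41 for model against control (SE 0.11, adjusted p = 0.0238, limma). Fzd10 was at 19.5, 16.1, 25.1 and 18.3 FPKM in treatment skin, 16.5, 9.61, 12.2 and 16.2 FPKM in model skin, and 16.7, 18.5, 21.3 and 19.7 FPKM in control skin. All model libraries were below all control libraries, and 2 of them overlapped with the lowest treatment library. The difference was 0.52 for treatment against model (SE 0.15, adjusted p = 0.0194) and -0.48 for model against control (SE 0.15, adjusted p = 0.0433, limma).

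Fzd6, a receptor that orients hairs across the skin, was at 26.3, 19.5, 30.1 and 23.3 FPKM in treatment skin, 23.9, 16.9, 17.6 and 23.1 FPKM in model skin, and 23.9, 28.3, 29.4 and 28.3 FPKM in control skin. It was lower in model than in control skin (-0.42, SE 0.13, adjusted p = 0.0460, limma), and treatment against model was not called. Among the 11 receptors, the co-receptors varied least over the 24 libraries. Lrp6 was at 21.2 ± 2.57 FPKM in treatment, 21.9 ± 2.60 FPKM in model and 22.7 ± 1.14 FPKM in control skin (SD, n = 4 each), with a log2 difference of -0.04 (SE 0.091) for treatment against model and -0.06 (SE 0.091) for model against control. Lrp5 was at 13.5 ± 1.28 FPKM in treatment, 11.7 ± 1.40 FPKM in model and 12.1 ± 0.692 FPKM in control skin (SD, n = 4 each) and was not called.

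Tcf7 was at 4.17, 3.24, 5.004 and 3.88 FPKM in treatment skin, 3.18, 2.004, 2.66 and 3.25 FPKM in model skin, and 3.82, 4.18, 4.38 and 3.87 FPKM in control skin. Every model library was below every control library, and the highest model library was level with the lowest treatment library. The difference was 0.43 for treatment against model (SE 0.12, adjusted p = 0.0147) and -0.44 for model against control (SE 0.12, adjusted p = 0.0239, limma). Tcf7 was the only one of the 46 genes called in model against control skin at both days. Lef1 was at 16.5 ± 4.11 FPKM in treatment, 12.2 ± 3.18 FPKM in model and 15.5 ± 2.52 FPKM in control skin (SD, n = 4 each), and Ctnnb1 at 240 ± 35.0, 225 ± 28.7 and 258 ± 14.0 FPKM in treatment, model and control skin (SD, n = 4 each). Neither was called.

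Feedback targets gave 3 of the 10 rises. Rnf43, which removes Frizzled receptors from the cell surface, was at 4.05, 3.49, 6.22 and 4.02 FPKM in treatment skin, 3.57, 2.34, 2.46 and 3.45 FPKM in model skin, and 3.82, 4.20, 4.93 and 4.14 FPKM in control skin. Treatment replicate 3 was far above the rest, and the difference was 0.45 for treatment against model (SE 0.13, adjusted p = 0.0226) and -0.42 for model against control (SE 0.13, adjusted p = 0.0461, limma). Nkd2, a relative of Nkd1, was at 26.1, 18.7, 35.1 and 22.7 FPKM in treatment skin, 20.1, 11.8, 15.9 and 22.2 FPKM in model skin, and 20.8, 23.5, 27.6 and 24.6 FPKM in control skin (treatment against model 0.53, SE 0.18, adjusted p = 0.0430, limma). Nkd1 was at 7.003, 4.53, 6.07 and 5.02 FPKM in treatment skin, 4.20, 3.82, 3.37 and 4.93 FPKM in model skin, and 4.63, 5.65, 5.62 and 4.18 FPKM in control skin (treatment against model 0.38, SE 0.13, adjusted p = 0.0469, limma). Both overlapped between treatment and model skin. Axin2 was at 7.36 ± 2.43 FPKM in treatment, 6.54 ± 1.06 FPKM in model and 8.50 ± 1.26 FPKM in control skin (SD, n = 4 each) and was not called (log2 difference for treatment against model 0.12, SE 0.16).

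Dkk2 was the one gene that fell. It was at 0.587, 0.800, 0.838 and 0.969 FPKM in treatment skin, 1.48, 1.91, 1.02 and 2.23 FPKM in model skin, and 2.06, 1.51, 1.47 and 1.33 FPKM in control skin. All 4 treatment libraries were below every model and control library. The ratio of the treatment to the model mean was 0.481, and the log2 difference was -0.55 (SE 0.19, adjusted p = 0.0484, limma). The other 11 inhibitors were not called, and Sfrp2 was at 15.4, 42.0, 7.47 and 13.0 FPKM in treatment skin, 8.96, 20.5, 25.0 and 19.0 FPKM in model skin, and 6.32, 8.90, 7.56 and 6.42 FPKM in control skin. For Sfrp2, model and control libraries did not overlap, with an adjusted p of 0.0531 (limma), and the treatment libraries spanned both groups. Fibroblast markers were at 3007 to 9535 FPKM in treatment, 7658 to 14506 FPKM in model and 5137 to 6160 FPKM in control skin of day 15 (10 genes summed, none at 0), and their part in the Dkk2 and Sfrp2 values was not tested.

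**Figure D3:**
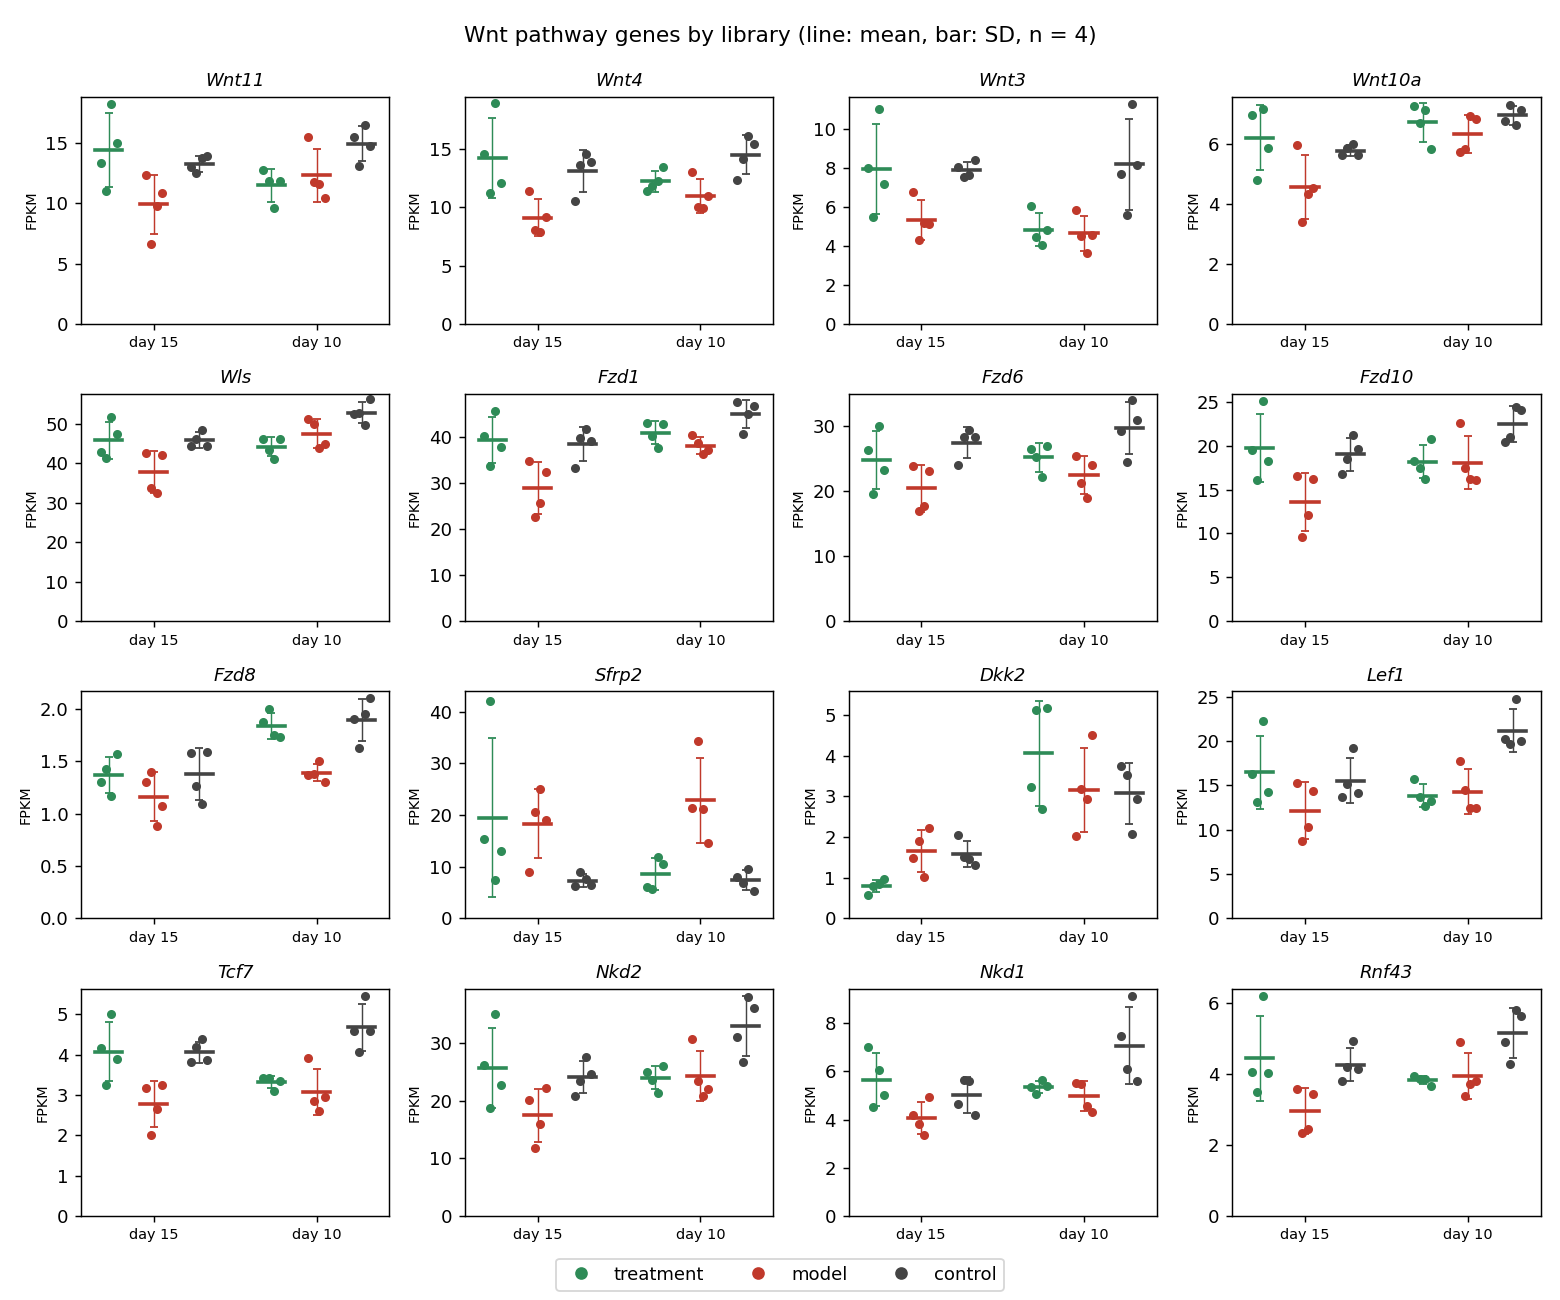
FPKM in each library of the 16 genes called in a main comparison, with day 15 left of day 10 and, within a day, treatment, model and control skin; the line is the mean and the bar the SD (n = 4). At day 15 the model means of Wnt4, Fzd1 and Tcf7 lie below those of both other groups; Dkk2 is below 1 FPKM in all 4 treatment libraries.

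The day 15 calls rest on few libraries. In model against control skin none of the 46 genes was called once a single one of model replicates 2 and 3 or control replicates 2, 3 and 4 was removed (limma), where 10 to 24 genes still had an unadjusted p under 0.05 and the highest adjusted p of the 7 genes ran from 0.0819 for Tcf7 to 0.142 for Fzd10. With all libraries kept, 25 of the 46 genes and 3948 of all 13039 genes had an unadjusted p under 0.05 (limma). Once model replicate 1 was removed, 16 of the 46 were called, a count given without the share of all genes in that fit. In treatment against model skin, 2 genes were called without model replicate 2, 5 without model replicate 3, 4 without treatment replicate 3, 6 without treatment replicate 1, 18 without treatment replicate 2 and 16 without model replicate 1. Wnt4 and Fzd1 stayed called without any 1 library (adjusted p up to 0.0313 and 0.0389, limma), and Tcf7 was lost only without model replicate 2 (0.0580). Wnt11 depended on treatment replicate 3 and model replicate 2 (0.0981), and Rnf43 on these and model replicate 3 (0.0765). Wls depended on treatment replicates 3, 4 and model replicates 2, 3 (0.101). Wnt10a, Fzd10 and Nkd2 depended on treatment replicates 1, 3 and model replicates 2, 3 (0.1001, 0.0765 and 0.155), and Nkd1 on these and model replicate 1 (0.174). Dkk2 was lost without any library but model replicate 3 (0.136, limma), and also with no filter (0.0680) and with voom (0.0756). A fit of the 2 groups alone called 0 of the 46 genes in treatment against model skin and 1 in model against control skin. That 1 gene was not among the 7 called in the fit of all groups. Within treatment skin of day 15, replicate 3 was the highest library for 31 of the 46 genes and replicate 2 the lowest for 31. Leaving out the 4 treatment libraries low in Y-linked RNA keeps only replicate 3 at day 15, and 21 of the 46 genes were then called, all higher, as were 16.6% of all genes (29.5% called in either direction). Dkk2 (adjusted p = 0.205) and Nkd1 (0.0777, limma) were lost there. With a common total per library, 5 of the 46 genes were called in treatment against model skin (4 higher) and 3 in model against control skin, beside 17.9% and 9.33% of all genes. Of all called genes, 29.0% were then higher in treatment than in model skin (52.6% as deposited) and 61.1% in model than in control skin (39.2%). Without the filter, 3 of the 46 were called in model against control skin.

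Markers of the growing hair follicle moved in the same direction. Of 15 hair matrix and cortex genes, 14 were called higher in treatment than in model skin at day 15 (median log2 difference 0.80), and their summed level was 5944 to 8182 FPKM in treatment, 3000 to 4974 FPKM in model and 5631 to 6790 FPKM in control skin. Of 9 inner root sheath genes, 8 were called higher, and the sums were 11620 to 13980 FPKM in treatment, 5790 to 10297 FPKM in model and 10260 to 13238 FPKM in control skin. In model against control skin, hair matrix genes were lower in 5 of 15 at day 15 and 12 of 15 at day 10, where they summed to 2046 to 4950 FPKM in model and 4533 to 7999 FPKM in control skin. No marker of either list was at 0 in all libraries of a group. Of 10 dermal papilla genes, 1 was called higher in treatment than in model skin at day 15. At day 15, melanocyte genes (3 of 7) and cell cycle genes (3 of 12) were also called higher in treatment than in model skin. Macrophage markers were called higher in 12 of 14 genes in model against control skin at day 10, and lower in 4 of 14 in treatment against model skin at day 15. The part of these markers in the Wnt results was not tested.

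Treatment against model skin at day 10 gave no call among the 46 genes in limma, while 0.192% of all genes were called. At an unadjusted p under 0.05 (limma) there were 8 of the 46, against 1360 of all 13039 genes. For the 46 genes, voom on recovered fragments also called 0. The smallest adjusted p was that of Sfrp2 (0.207), which was at 6.12, 5.69, 11.8 and 10.6 FPKM in treatment skin, against 21.4, 34.3, 21.1 and 14.6 FPKM in model skin. These libraries did not overlap, and the log2 difference was -1.32 (SE 0.38). Fzd8 was at 1.87, 1.998, 1.75 and 1.73 FPKM in treatment skin, against 1.37, 1.38, 1.499 and 1.30 FPKM in model skin, again without overlap (log2 difference 0.25, SE 0.086, adjusted p = 0.289, limma). Sfrp2 and Fzd8 were both called in model against control skin at day 10. That comparison uses the same model libraries, so the differences of these genes are not independent. Kidney transcripts separate these groups, with Kap at 0 in treatment skin and 14.0 to 20.5 FPKM in model skin; their part in these values was not tested.

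Whether the treatment to model difference itself changed between days was tested with an interaction term. None of the 46 genes was called by limma (0.0997% of all genes), with 15 at an unadjusted p under 0.05 and the smallest adjusted p at 0.138 for Notum, while voom called 0. Over all 13039 genes, 1884 had an unadjusted p under 0.05 (limma). The same test of the model to control difference gave 0 calls (0% of all genes), 1 gene at an unadjusted p under 0.05 (352 of all 13039 genes) and 0 by voom. A gene called at one day and not at the other was therefore not shown to differ between days.

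Treatment against control skin places the DHT and extract group beside skin of mice given saline injections and solvent. At day 15 none of the 46 genes was called by limma (0.314% of all genes), 3 had an unadjusted p under 0.05 (2572 of all 13039 genes) and voom called 0. The smallest adjusted p was 0.140, for Sfrp2, and Dkk2 was below every control library in all treatment libraries (log2 difference -0.52, SE 0.19, adjusted p = 0.143, limma). Without treatment replicate 3, 3 of the 46 genes were called, along with 20.4% of all genes. At day 10, 1 gene was called, lower (3.24% of all genes called, 1.04% lower). Notum was at 0.933, 0.818, 1.14 and 0.944 FPKM in treatment skin, against 1.47, 1.59, 1.67 and 1.99 FPKM in control skin, without overlap (log2 difference -0.45, SE 0.12, adjusted p = 0.0410, limma). Notum was lost without any library but control replicate 2 (adjusted p up to 0.132, limma), 2 genes were called without that one, and 1 gene other than Notum was called without treatment replicate 1. Of the 46 genes, 35 (76.1%) were below 0, against 61.2% of all genes. On the lower side, 13 of the 46 did not overlap (12.4% of all genes). Lef1 was at 13.9 ± 1.34 FPKM in treatment and 21.2 ± 2.42 FPKM in control skin (SD, n = 4 each), with an adjusted p of 0.0566 (limma). In a fit of these 2 groups alone, 13 genes were called lower, where 17.1% of all genes were called and 6.99% were lower. Kidney transcripts separate these groups, with Kap at 0 in treatment skin and 19.9 to 23.8 FPKM in control skin, and 7 of 14 macrophage and 4 of 6 erythrocyte markers were higher in treatment skin. Their part was not tested.

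In model skin, 8 of the 12 inhibitors, 4 of the 12 ligands, 3 of the 11 receptors and Wls were lower at day 15 than at day 10, and 30 of the 46 genes were not called. Of the 46 genes, 16 were called in model skin, all lower (34.8%), while 8.47% of all genes were called and 6.85% were lower. The median log2 difference was -0.30 over the 46 genes and -0.08 over all genes. With libraries scaled by median of ratios, which moves the all-gene median to 0.01, the median of the 46 genes was -0.19 and 6 were called lower. Under that scaling 3.98% of all genes were called, with 250 genes lower.

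Wif1 was at 19.6, 10.4, 10.3 and 17.0 FPKM in model skin at day 15, against 21.9, 27.6, 27.8 and 32.3 FPKM at day 10. The days did not overlap (log2 difference -0.93, SE 0.19, adjusted p = 0.00802, limma). Apcdd1, a membrane protein that binds Wnt and Lrp5, was at 29.7, 25.9, 18.8 and 34.7 FPKM at day 15, against 45.6, 40.6, 45.5 and 47.1 FPKM at day 10 (-0.72, SE 0.14, adjusted p = 0.00709, limma). Both stayed called without any 1 library. Wnt10b, a ligand associated with the growth phase of the hair cycle, was at 4.75, 2.25, 2.68 and 5.57 FPKM at day 15, against 8.36, 6.94, 7.60 and 6.98 FPKM at day 10 (-0.87, SE 0.21, adjusted p = 0.0174, limma), and was lost without model replicate 3 of day 15 (0.0890). Fzd2 (-0.61), Notum (-0.49), Kremen2 (-0.53), Sfrp4 (-1.07), Wnt5b (-0.60), Fzd7 (-0.44), Fzd1 (-0.40), Wnt10a (-0.41), Wnt7b (-0.40), Dkk2 (-0.64), Wls (-0.33), Lrp4 (-0.34) and Kremen1 (-0.29) fell too. Without model replicate 3 of day 15, 2 of the 46 genes were called, 5 without model replicate 2 or 4 of day 10, and 9 without model replicate 3 of day 10 or replicate 2 of day 15. A fit of the 2 groups alone called 0. Kidney transcripts again separate the groups, at most 0.190 FPKM summed over 9 genes at day 15 and 17.7 to 25.4 FPKM at day 10. Other markers that were lower at day 15 were those of the cell cycle (7 of 12, median log2 difference -0.47), melanocytes (5 of 7, -0.73), suprabasal epidermis (4 of 8, -1.02), the dermal papilla (4 of 10, -0.31) and the sebaceous gland (3 of 8, -0.79). Hair matrix and cortex markers went the other way (3 of 15 called higher, 0 lower, median 0.28). So did inner root sheath markers (1 of 9 called higher, 0 lower, median 0.28). Cell cycle genes summed to 200.4 to 310.2 FPKM at day 15 and 320.9 to 338.3 FPKM at day 10, and melanocyte genes to 97.5 to 182 FPKM at day 15 and 189 to 275 FPKM at day 10 (none at 0). The part of these markers was not tested.

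In control skin 3 genes fell between days (4.81% of all genes called, 3.33% lower), with Fzd2 at 7.06, 7.32, 8.58 and 6.83 FPKM at day 15, against 14.0, 11.0, 10.5 and 13.7 FPKM at day 10. The days did not overlap (log2 difference -0.65, SE 0.14, adjusted p = 0.0153, limma). Notum (-0.41, adjusted p = 0.0463) and Apcdd1 (-0.49, adjusted p = 0.0494, limma) were the others. None was called without control replicate 1 of day 10 or control replicate 1, 2 or 4 of day 15, 1 was called without control replicate 2 or 4 of day 10, and 5 were called without control replicate 3 of day 15. Median-of-ratios scaling left 1, where 2.79% of all genes were called. Kidney transcripts separate these groups too, at most 0.107 FPKM summed at day 15 and 25.4 to 29.3 FPKM at day 10, and 5 of 12 cell cycle and 4 of 7 melanocyte genes were lower at day 15. Their part was not tested.

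In treatment skin 3 genes were called (9.64% of all genes). Dkk2 fell to 0.587, 0.800, 0.838 and 0.969 FPKM at day 15, against 3.23, 5.13, 2.69 and 5.19 FPKM at day 10. The highest day 15 library was under the lowest day 10 library by a wide margin (log2 difference -1.46, SE 0.19, adjusted p = 0.00139, limma), and this was the one call among these genes that held in every alternative. Dkk2 was also called lower at day 15 in model skin. Control skin was at 2.06, 1.51, 1.47 and 1.33 FPKM at day 15, against 3.76, 3.53, 2.07 and 2.93 FPKM at day 10, without overlap and not called. Fzd2 fell in treatment skin as well (-0.49, SE 0.14, adjusted p = 0.0298, limma). Wnt3 was at 8.02, 5.50, 11.1 and 7.21 FPKM at day 15, against 6.03, 4.45, 4.06 and 4.80 FPKM at day 10, and rose (0.59, SE 0.18, adjusted p = 0.0406, limma), with overlap between the days. Without treatment replicate 3 of day 15, 7 genes were called (19.4% of all genes), without replicate 2 of day 15 there were 4, and without replicate 2 or 4 of day 10 or replicate 1 of day 15 there was 1. Wnt3 was lost without replicates 2, 3 or 4 of day 10 or replicates 1, 3 or 4 of day 15 (adjusted p up to 0.107) and Fzd2 without replicates 1, 2 or 4 of day 10 or replicates 1 or 4 of day 15 (up to 0.0924, limma). Sebaceous gland (6 of 8) and basal epidermis (4 of 6) markers were lower at day 15, 7 of 9 inner root sheath genes were higher, and their part was not tested. Over all 46 genes the median was -0.05, and 0.00 with median-of-ratios scaling.

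**Figure D4:**
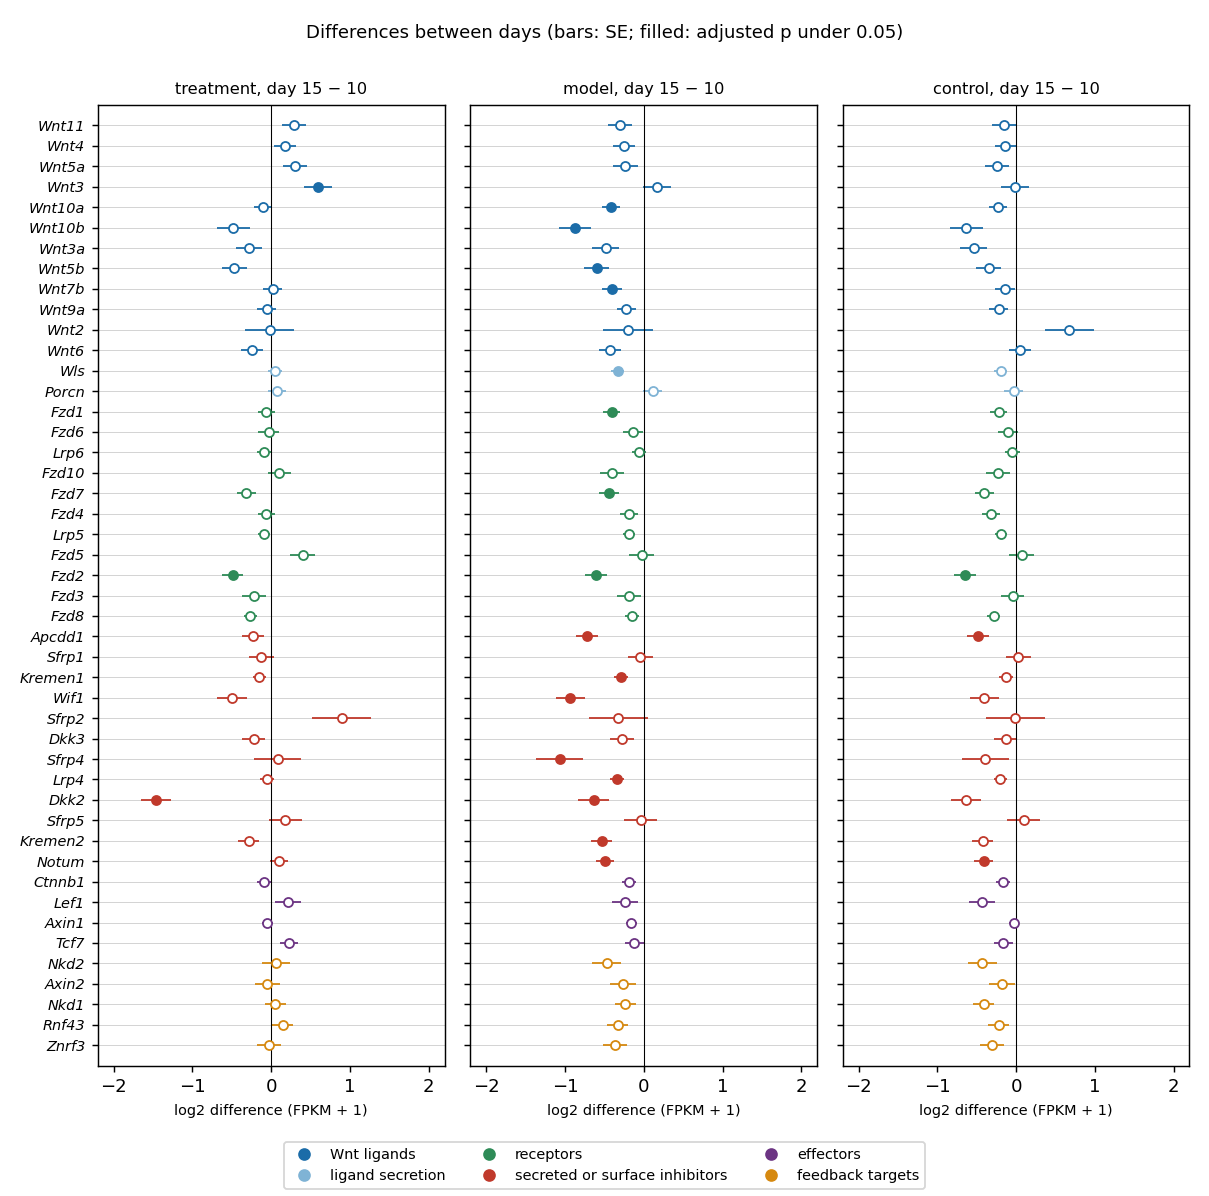
Log2 differences of day 15 against day 10 on the log2(FPKM + 1) scale for the 46 genes in treatment, model and control skin, with their SE; filled points have an adjusted p under 0.05. Model skin has 16 filled points, all left of 0, and Dkk2 in treatment skin has the largest fall at -1.46.

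Other genes of the pathway were taken from 4 lists, whose counts stand beside 7.04% and 6.56% of all genes lower in model skin at day 10 and day 15 and 10.3% higher in treatment than in model skin at day 15. Of 29 tested cytoplasmic and nuclear components, 4 were lower in model than in control skin at day 10 and 4 at day 15, and 6 were higher in treatment than in model skin at day 15. Gsk3a, a kinase that marks beta-catenin for destruction, was among them each time, at 39.6 ± 2.83 FPKM in treatment, 33.0 ± 1.02 FPKM in model and 37.4 ± 1.41 FPKM in control skin at day 15 (SD, n = 4 each). Its log2 difference was 0.26 for treatment against model (adjusted p = 0.00519) and -0.18 for model against control (adjusted p = 0.0477, limma). The beta-catenin co-activator Bcl9 was lower in model than in control skin at day 10 (-0.49, adjusted p = 0.00682, limma) and was not called at day 15. Pygo2 and Bcl9l were lower at day 15 (-0.27 and -0.29, adjusted p = 0.0271 and 0.0493, limma). All 3 were higher in treatment than in model skin at day 15 (0.30, 0.27 and 0.31, adjusted p = 0.0484, 0.0151 and 0.0246, limma). Both day 15 comparisons use the same model libraries.

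Of 15 tested extracellular components, 2 were lower in model skin at each day, Gpc4 at both (-0.32 and -0.33), Lgr4 at day 10 (-0.47) and Shisa2 at day 15 (-0.42). Only Rspo4, an R-spondin that potentiates Wnt signalling, was higher in treatment skin at day 15, at 3.77 ± 0.194 FPKM against 2.44 ± 0.481 FPKM in model skin (SD, n = 4 each; log2 difference 0.48, adjusted p = 0.0180, limma). Of 20 tested non-canonical and planar polarity genes, 3 were higher and 3 lower in model skin at day 10, 1 and 1 at day 15, and 2 were higher and 1 lower in treatment skin at day 15. Camk2d, a calcium-dependent kinase, was at 5.34 ± 1.02 FPKM in treatment, 8.84 ± 1.47 FPKM in model and 5.83 ± 0.581 FPKM in control skin at day 15 (SD, n = 4 each). Its log2 difference was -0.64 for treatment against model (adjusted p = 0.00262) and 0.52 for model against control (adjusted p = 0.0164, limma), opposite in sign to the planar polarity gene Ptk7 (0.42 and -0.46). At day 10, Camk2d was above control skin in both model skin (0.43, adjusted p = 0.0272) and treatment skin (0.57, adjusted p = 0.0169, limma). Of 11 tested further targets, Msx2, also a hair matrix marker here, was lower in model skin (-0.69) and higher in treatment skin (0.74) at day 15, Ccn5 was higher in model skin (1.45) and Twist1 was lower in treatment skin (-0.67). None of these lists had a call in treatment against model skin at day 10.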

How the data were processed

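Poly(A) RNA of mouse skin was measured in 24 libraries, each from 1 mouse, 4 per group, and groups were taken from the sample titles. Per the labels' protocols, RNA was extracted with TRIzol and libraries were made with a VAHTS Universal V6 kit. Per the submitters' processing notes, fastp, HISAT2 and HTSeq were used with build GRCm39; versions, parameters and strand settings are not given in the sources used here. The authors deposited 1 table of FPKM for 18892 gene symbols, with no coordinates. FPKM totals were 413117 to 455945 per library. Whole fragments were recovered from the FPKM steps for all 18715 genes above 0 (100%, tolerance 0.05 of a fragment, largest deviation 0.000447), so depth differed little between libraries (0.957 to 1.062 times the mean). No 2 libraries were identical.

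FPKM were tested as log2(FPKM + 1) in one limma 3.58.1 fit of all 24 libraries (R 4.3.3, lmFit, contrasts.fit, eBayes with trend and robust), keeping the 13039 genes that reached 1 FPKM in 4 or more libraries. Tests were two-sided, with Benjamini-Hochberg adjustment over all 13039 genes within every comparison (11 in all), and called means an adjusted p under 0.05. Scripts were checked on simulated data. Values in every library are given for genes called in the 4 main comparisons, and for some others chosen after their values were seen; the highest genes of each role are given by means. The members and lists were chosen with earlier results of these data known. Alternatives were a pseudocount of 0.1, no filter, scaling by median of ratios or to a common total, only the groups compared, the replicate number as a block, voom on recovered fragments and leaving out each library. Leaving out 4 treatment libraries low in Y-linked RNA (summed FPKM under 0.75 of the median) was added after seeing the data. Upstream sequences are from a RefSeq table (GRCm38.p6), another build than that of the deposited values, and no coordinates were moved between builds. The genes whose upstream sequence is shown were picked after the motif search.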

Additional observations from a re-analysis of the deposited data

Results flagged for a closer look

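In 150 groups of 4 libraries (6 groups for each of 25 named genes), 5 had 1 library far from the other 3, where chance flags about 1 group in 20. Lef1 and Wnt5a were high in control replicate 3 of day 10, at 24.8 FPKM with the others at 19.7 to 20.3 FPKM, and at 14.2 FPKM with the others at 11.5 to 11.8 FPKM. Lrp6 was low in control replicate 2 of day 10, at 20.4 FPKM with the others at 24.3 to 24.9 FPKM. Kremen1 was high in control replicate 3 of day 15, at 21.0 FPKM with the others at 18.4 to 18.9 FPKM, and Axin1 was low in model replicate 2 of day 15, at 11.9 FPKM with the others at 13.7 to 14.0 FPKM. The Lef1 call in model against control skin at day 10 was lost without that control library, among others (adjusted p up to 0.118, limma).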

How the results depend on the processing

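Among the 47 calls of the 46 genes over all comparisons, 0 changed sign in any alternative. Calls were kept in 45 cases with a pseudocount of 0.1, 44 with voom, 43 with the replicate block, 35 without the filter, 35 with median-of-ratios scaling, 33 with a common total and 11 when only the groups compared were fitted. Counts of called genes that moved by over 1.5 times were as follows. With only the groups compared, model against control skin gave 11 genes at day 10 and 1 at day 15, treatment against model skin 0 at day 15, treatment against control skin 13 at day 10, and day 15 against day 10 gave 0 in model and 14 in control skin. The 1 gene at day 15 was not among the 7 called in the main fit. For control skin between days, the share of all genes called rose as well, to 14.9% from 4.81%. With a common total there were 3 in model against control skin and 5 in treatment against model skin at day 15, and 6 in treatment and 7 in control skin between days. In the same order, 9.33%, 17.9%, 14.8% and 7.26% of all genes were called. Without the filter, model against control skin at day 15 gave 3. With median-of-ratios scaling, 6 were called in model and 1 in control skin between days (3.98% and 2.79% of all genes). The labels do not say whether the replicate numbers pair the mice, and correlations of same-numbered libraries ran from -0.631 to 0.509. As a replicate block the numbers gave 2 genes in treatment against control skin at day 10 and moved no other count by over 1.5 times. Without the 4 treatment libraries low in Y-linked RNA, chosen after seeing the data, 21 genes were called in treatment against model skin at day 15 and 4 in its difference between days; treatment skin of day 15 then has 1 library, assumed to vary like the others. Leaving out each library in turn gave 1 to 13 genes in model against control skin at day 10 and 0 to 16 at day 15, 2 to 18 in treatment against model skin at day 15 and 0 at day 10, 0 to 2 in treatment against control skin at day 10 and 0 to 3 at day 15. Between days it gave 1 to 7 in treatment, 2 to 18 in model and 0 to 5 in control skin, and 0 for both differences between days. The share of all genes called could move as well, as it did without treatment replicate 3 of day 15. A common total changed the share of all called genes that were higher to 29.0% in treatment against model skin at day 15 (52.6% as deposited), and to 63.0% and 61.1% in model against control skin at day 10 and day 15 (49.1% and 39.2%). It also became 79.2% in treatment against control skin at day 10 (67.8%), 37.5% in treatment against model skin at day 10 (48.0%), 50.0% for the change of that difference between days (61.5%) and 8.28% in treatment skin between days (21.9%). Between days, median-of-ratios scaling changed it to 43.0% in treatment, 51.8% in model and 57.7% in control skin (21.9%, 19.1% and 30.8%). Depth limits the lowest genes, down to 15 fragments for Wnt2 in 1 library.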
